A study of Mus musculus with 7 samples.

Results

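The genes of 5 cytokines made by TH17 cells, Il17a, Il17f, Il21, Il22 and Csf2, were examined in regulatory T (Treg) cells from the lung. They were found by their symbols among the 19736 gene symbols listed for each library, and all 5 were listed. The series holds 7 RNA-seq libraries of Treg cells from female mice aged 5 to 7 weeks. Both groups came from mice that carry R576, an allele of Il4ra (the IL-4 receptor alpha chain), together with an EGFP reporter of Foxp3, the transcription factor that defines Treg cells. Allergic airway inflammation had been set up with ovalbumin (OVA): 100 µg in 100 µL into the peritoneum, a boost 2 weeks later, and a 1% OVA aerosol for 30 min a day on 3 days from day 29, with the mice killed on day 32. Foxp3-EGFP+ cells were sorted from whole lung digests by the chemokine receptor CCR6 into CCR6+ cells (3 libraries) and CCR6- cells (4 libraries). Libraries of mice without the R576 allele, of mice without OVA and of conventional TH17 cells were not analysed here, so no level below is set against that of a TH17 cell. Whether each library is a separate mouse is not stated in the labels, so the p-values measure only how these libraries vary, and that variation may be technical.

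TH17 cells are CD4+ T cells that guard mucosal surfaces and that also drive neutrophil-rich airway inflammation. IL-17A and IL-17F form homodimers and a heterodimer that act through the IL-17RA and IL-17RC receptor chains on epithelium and fibroblasts, which answer with neutrophil-attracting chemokines. IL-21 acts on T and B cells and feeds back on TH17 cells, IL-22 acts on epithelial cells, which carry its receptor, and Csf2 encodes GM-CSF, a growth factor of myeloid cells. Transcription of these genes in TH17 cells is sustained by IL-23 and IL-1. The title of the study names TH17 cell-like Treg cells, and CCR6, the receptor of the chemokine CCL20, marks TH17 cells as well as some Treg cells.

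The genes Il17a and Il17f are neighbours on mouse chromosome 1, and both were higher in every CCR6+ library than in every CCR6- library, so the bases before their starts are shown. Il17a occupies chr1:20730905-20734496 on the plus strand, with 3 exons, and Il17f occupies chr1:20777146-20790617 on the minus strand (mm10 positions, GENCODE M21, both protein coding). The gap between them is 42.649 kb. The 250 bases before each RefSeq start (GRCm38.p6) are given 5′ to 3′ on the strand of the gene, at chr1:20730655-20730904 (+) for Il17a and chr1:20784271-20784520 (-) for Il17f. The Il17f start used by RefSeq lies inside the longer GENCODE gene. Capitals mark matches to AGGTCA, a core motif of nuclear receptors, to TGANTCA, an AP-1 motif, and to TATAAA, which the TATA-binding protein recognises, searched on both strands.

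Il17a: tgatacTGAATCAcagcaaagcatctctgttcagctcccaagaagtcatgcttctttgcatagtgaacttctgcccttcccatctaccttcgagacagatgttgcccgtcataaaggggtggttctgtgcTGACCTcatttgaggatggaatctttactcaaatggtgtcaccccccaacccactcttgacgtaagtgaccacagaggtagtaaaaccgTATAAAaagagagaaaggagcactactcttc
Il17f: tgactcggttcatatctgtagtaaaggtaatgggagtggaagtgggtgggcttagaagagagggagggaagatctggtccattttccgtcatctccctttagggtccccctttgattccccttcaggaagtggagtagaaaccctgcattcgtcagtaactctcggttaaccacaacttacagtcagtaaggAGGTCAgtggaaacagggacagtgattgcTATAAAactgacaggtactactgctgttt

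In the Il17a window AGGTCA was read on the opposite strand, 120 to 115 bases before the start, and in the Il17f window on the strand of the gene, 58 to 53 bases before it. Among 32851 windows of the same length before mouse RefSeq starts, 14% held AGGTCA, 6.75% held TGANTCA and 12.4% held TATAAA. The TATA box matches ended 26 bases (Il17a) and 24 bases (Il17f) before the start. The AP-1 match was in the Il17a window alone, 244 to 238 bases before the start. None of the windows of Il21, Il22 and Csf2 held AGGTCA, and the window of Il22 held TATAAA 170 to 165 bases before the start. A match is a description of the letters, not a bound site.

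The deposited values are counts of reads that had been scaled library by library, and whole reads could be recovered from them. The libraries held 11607780 to 47261246 reads assigned to genes. One of them, CCR6+ replicate 2, stood apart. It was the shallowest library, with 1 read worth 2.27 units of the deposited scale against 0.677 to 1.02 units in the other 6, yet it listed only 2.16% of genes at 0, against 6.89% to 29.7% in the others. Among 14582 genes tested, 43.6% had their highest value in it. Many differences below are therefore given with and without it. Ccr6, the gene of the sorted receptor, stood at 5488 ± 2414 (SD, n = 3) in CCR6+ and 617 ± 312 (SD, n = 4) in CCR6- libraries, and the groups did not overlap. Foxp3 stood at 33447 ± 19614 (SD, n = 3) and 31384 ± 8699 (SD, n = 4), and was lowest, at 12206, in CCR6+ replicate 2.

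Il17a had values of 23.2, 88.7 and 19.3 in CCR6+ replicates 1 to 3, from 27, 39 and 19 reads. In CCR6- replicates 1 to 4 the values were 3.78, 11.6, 3.68 and 6.09, from 4, 14, 4 and 9 reads. Every CCR6+ library was above every CCR6- library, and CCR6+ replicate 2 was far above the other 2 of its group. The means were 43.7 ± 39.0 (SD, n = 3) and 6.29 ± 3.71 (SD, n = 4), a ratio of 6.95, or 3.38 without CCR6+ replicate 2, which held 67.6% of the summed CCR6+ value. On log2(value + 1), a scale that understates differences of low genes, the difference between groups was 2.40 (SE 0.63), or 1.73 without CCR6+ replicate 2. After quantile normalization, which gives every library the same distribution of values, it was 0.23. It did not pass limma's test over all genes (adjusted p = 0.427). An exact two-sided permutation test on Il17a alone gave p = 0.0286, the smallest p that 3 against 4 libraries allow, unadjusted for the 5 genes tested this way.

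Il17f showed the same order of groups with more reads. Its values were 75.6, 223 and 23.3 in CCR6+ replicates 1 to 3, from 88, 98 and 23 reads. They were 4.73, 9.94, 9.20 and 4.06 in CCR6- replicates 1 to 4, from 5, 12, 10 and 6 reads. The groups again did not overlap, and CCR6+ replicate 3 was well below the other 2 libraries of its group. The means were 107 ± 103 (SD, n = 3) and 6.98 ± 3.02 (SD, n = 4), a ratio of 15.4, or 7.09 without CCR6+ replicate 2, in which 69.3% of the CCR6+ sum lay. The log2 difference was 3.31 (SE 0.76), or 2.52 without that library and 1.51 after quantile normalization. By limma the adjusted p was 0.393, by DESeq2 on the recovered reads it was 0.00631 with a log2 difference of 3.92, and the exact permutation p was 0.0286, unadjusted. Without CCR6+ replicate 2, DESeq2 gave no adjusted p for Il17f, Il17a or Il21. The unadjusted DESeq2 p in that setting was 0.00964 for Il17f, 0.168 for Il17a and 0.350 for Il21.

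**Figure D1:**
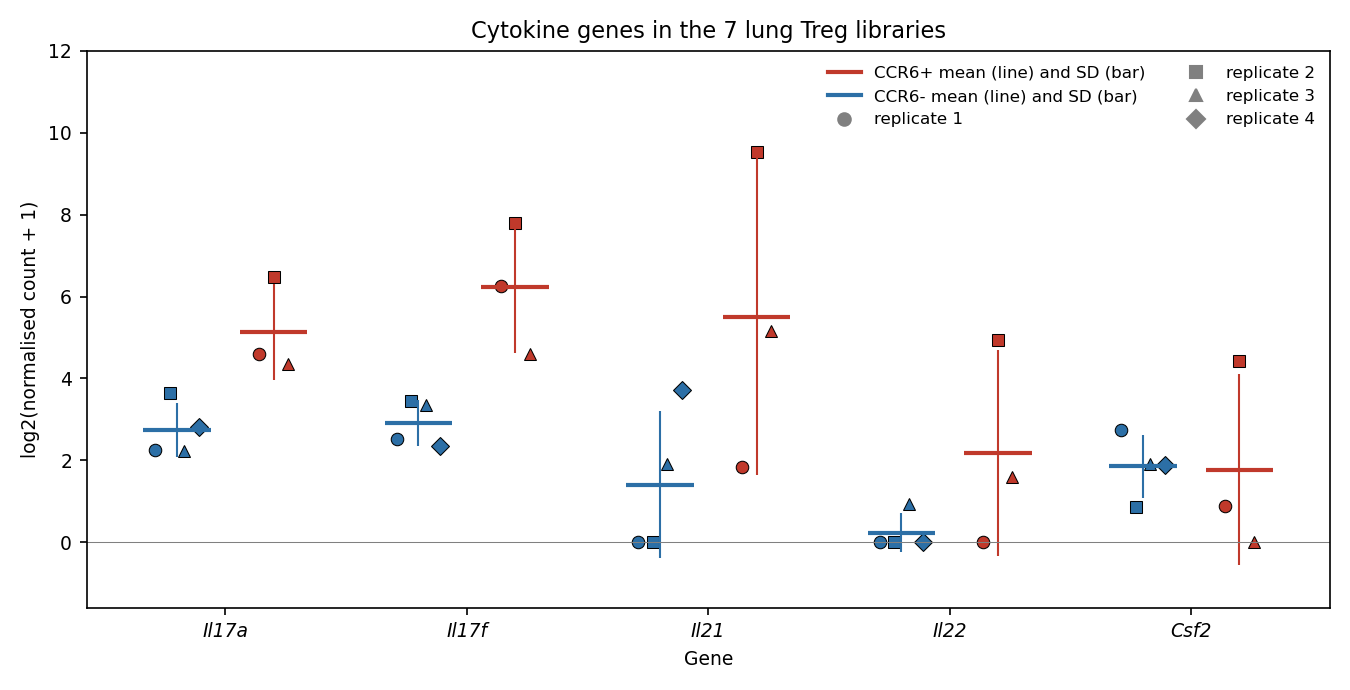
Log2(deposited normalised count + 1) of Il17a, Il17f, Il21, Il22 and Csf2 in the 3 CCR6+ (red) and 4 CCR6- (blue) libraries, 1 point a library with a shape for each replicate number, the mean as a line and the SD as a bar. The CCR6+ and CCR6- points of Il17a and Il17f do not overlap, and CCR6+ replicate 2 (red square) is the highest point for each of the 5 genes.

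Between the pair of IL-17 genes, Il17f took the larger share of reads in CCR6+ cells. It held 76.5% of the 115 reads of the pair in CCR6+ replicate 1 (exact Clopper-Pearson 95% interval 67.7% to 83.9%), 71.5% in replicate 2 (63.2% to 78.9%) and 54.8% in replicate 3 (38.7% to 70.2%). In CCR6- libraries the shares were 55.6%, 46.2%, 71.4% and 40% of 9 to 26 reads, with intervals as wide as 21.2% to 86.3%. The groups overlapped in this share, and intervals cover counting error only, since reads without molecular identifiers are not independent molecules. Summed over libraries, 209 of 294 reads of the pair came from Il17f in CCR6+ (71.1%) and 33 of 64 in CCR6- (51.6%). Il17f has the longer exonic sequence, 2022 bases against 1171. Per kb of exonic sequence, the Il17f level was 53.1 ± 51.2 (SD, n = 3) and the Il17a level 37.3 ± 33.3 (SD, n = 3) in CCR6+ libraries, closer than their spread. Per kb in CCR6- libraries, Il17f was at 3.45 ± 1.49 (SD, n = 4) and Il17a at 5.37 ± 3.17 (SD, n = 4). No run of 50 bases is shared by the exons of Il17a and Il17f, so reads of that length that match one exactly do not match the other.

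Both IL-17 genes ranked low among tested genes when length was not considered. Among the 14582 tested genes, Il17a in CCR6+ replicates 1 to 3 ranked at percentiles 20.3, 7.44 and 5.90 of its own library, and Il17f at percentiles 29.3, 21.2 and 7.63. In CCR6- libraries the percentiles ran from 1.00 to 17.3 for Il17a and from 3.56 to 15.9 for Il17f, so by rank within the library the groups overlapped for both. Ranked by level per kb among all listed genes with a length, genes at 0 included, Il17a was at percentiles 41.4 to 47.9 in CCR6+ and 28.4 to 43.7 in CCR6- libraries. Il17f was at 36.2 to 54.3 and 33.3 to 38.8 on that ranking, and the groups overlapped again. In RPM (reads scaled to a common library total), Il17a spanned 0.690 to 3.36 in CCR6+ and 0.127 to 0.395 in CCR6- libraries. Il17f spanned 0.836 to 8.44 and 0.127 to 0.339 RPM. In bulk samples such as these, fewer cells that make a transcript and less transcript per cell cannot be told apart.

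A further ratio, chosen after the values were seen, sets the IL-17 genes against Foxp3. Per 10000 Foxp3 reads there were 4.56, 72.7 and 5.18 Il17a reads in CCR6+ replicates 1 to 3 and 0.968 to 3.76 in CCR6- libraries, without overlap. Il17f reads per 10000 Foxp3 reads were 14.9, 183 and 6.27 in CCR6+ libraries and 1.21 to 3.22 in CCR6- libraries, again without overlap. Relative to Foxp3, CCR6+ replicate 2 was again far above every other library for both genes. Foxp3 was lowest in that library (12206), so this ratio raises it for any gene. The share of all genes without overlap on this ratio is not given, so the separation is not a result about the IL-17 genes.

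Il21 was the most uneven of the 5. It lies at chr3:37222759-37232636 on the minus strand. Its values were 2.58, 742 and 34.5 in CCR6+ replicates 1 to 3, from 3, 326 and 34 reads, and 0, 0, 2.76 and 12.2 in CCR6- replicates 1 to 4, from 0, 0, 3 and 18 reads. CCR6+ replicate 2 alone held 84.9% of all 384 Il21 reads, and CCR6- replicate 4 was above CCR6+ replicate 1, so the groups overlapped. The means were 260 ± 418 (SD, n = 3) and 3.74 ± 5.78 (SD, n = 4). Their ratio was 69.5, and 4.97 without CCR6+ replicate 2, so 1 library set its size. On the log2 scale Il21 stood 4.10 (SE 1.91) higher in CCR6+ libraries, or 2.09 without that library. The limma adjusted p was 0.484, the exact permutation p was 0.143, and DESeq2 gave an adjusted p of 0.0345 with a log2 difference of 6.08. Without CCR6+ replicate 2 the DESeq2 log2 difference was 2.30, with an unadjusted DESeq2 p of 0.350. Of the exonic bases of Il21, 8.92% overlap the antisense gene Gm12534, and use of strand in the counting is not given in the sources used here.

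Il22 was close to the limit of detection. It lies at chr10:118204942-118210047 on the plus strand. Reads were found in 3 libraries only, 13 in CCR6+ replicate 2 (value 29.6), 2 in CCR6+ replicate 3 (2.03) and 1 in CCR6- replicate 3 (0.920). The other 4 libraries had none, where a count of 0 allows a value of up to 2.58 in CCR6+ replicate 1 and 2.84, 2.49 and 2.03 in CCR6- replicates 1, 2 and 4 (3 reads, counting error only). The sum was 15 reads in CCR6+ and 1 in CCR6-, the groups overlapped, and the exact permutation p was 0.143. On the log2 scale the difference was 1.94, and 0.56 without CCR6+ replicate 2. The gene reached the minimum value of 10 in 1 library and did not enter the limma test, which required it in 3. A near-identical gene, Iltifb, lies 79.581 kb away and shares 41.0% of the 50-base words of Il22. It had 3 reads in CCR6+ replicate 2 and none elsewhere, and how the authors' counting divided reads between Il22 and Iltifb is not given in the sources used here.

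For Csf2 the order of the groups depended on single libraries. It lies at chr11:54247271-54249667 on the minus strand. Its values were 0.859, 20.5 and 0 in CCR6+ replicates 1 to 3, from 1, 9 and 0 reads, and 5.67, 0.83, 2.76 and 2.71 in CCR6- replicates 1 to 4, from 6, 1, 3 and 4 reads. Apart from CCR6+ replicate 2, every CCR6+ library was at or below 1 read while 3 of 4 CCR6- libraries had 3 to 6. The means were 7.11 ± 11.6 (SD, n = 3) and 2.99 ± 2.00 (SD, n = 4), and the log2 difference was -0.08, or -1.41 without CCR6+ replicate 2. It turned positive without CCR6+ replicate 1 (0.36), CCR6+ replicate 3 (0.81) or CCR6- replicate 1 (0.22). An exact permutation test gave p = 0.886 for Csf2. These values rest on 10 reads in CCR6+ and 14 in CCR6- libraries. The exons of Csf2 overlap those of the antisense gene Gm12223 over 12% of their bases.

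Together the 5 genes gave 3.38, 41.8 and 2.83 RPM in CCR6+ replicates 1 to 3 and 0.483, 0.763, 0.668 and 0.783 in CCR6- replicates 1 to 4. The gene with most of these reads was not the same in every library. Il17f led in CCR6+ replicate 1 with 74.0% of the reads, and Il21 led in CCR6+ replicates 2 and 3 with 67.2% and 43.6%. In CCR6- replicates 1 to 4 the leading gene was Csf2, Il17a, Il17f and Il21 in turn, with 40%, 51.9%, 47.6% and 48.6% of 15 to 37 reads. All 5 genes had reads in CCR6+ replicate 2 and in CCR6- replicate 3.

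Set against the whole table, the IL-17 genes shared their pattern with many others. Of the 3 members tested, limma called 0, and it called 0% of all 14582 genes at an adjusted p under 0.05. At an unadjusted p under 0.05, Il17a and Il17f were among 1198 genes higher in CCR6+, 8.22% of those tested. The groups did not overlap for 2 of the 3 members tested, with CCR6+ higher, against 7.96% of all genes tested. DESeq2 called 2 of the 3 higher, Il17f and Il21, against 3.85% of the genes to which it gave an adjusted p. The median log2 difference over all genes tested was 0.10, or 0.04 without CCR6+ replicate 2. The median of the 3 members tested was 3.31, or 2.09 without it. Of all genes tested, 56.9% had a positive difference, the share beside which counts of positive differences in the lists below stand. A member entered the test only with values of at least 10 in 3 libraries, so these 3 are not all members. Il17f reached that level in the 3 CCR6+ libraries alone, so it had to stand higher there to be tested, and the counts and the median over these 3 are descriptions that the filter partly fixed.

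**Figure D2:**
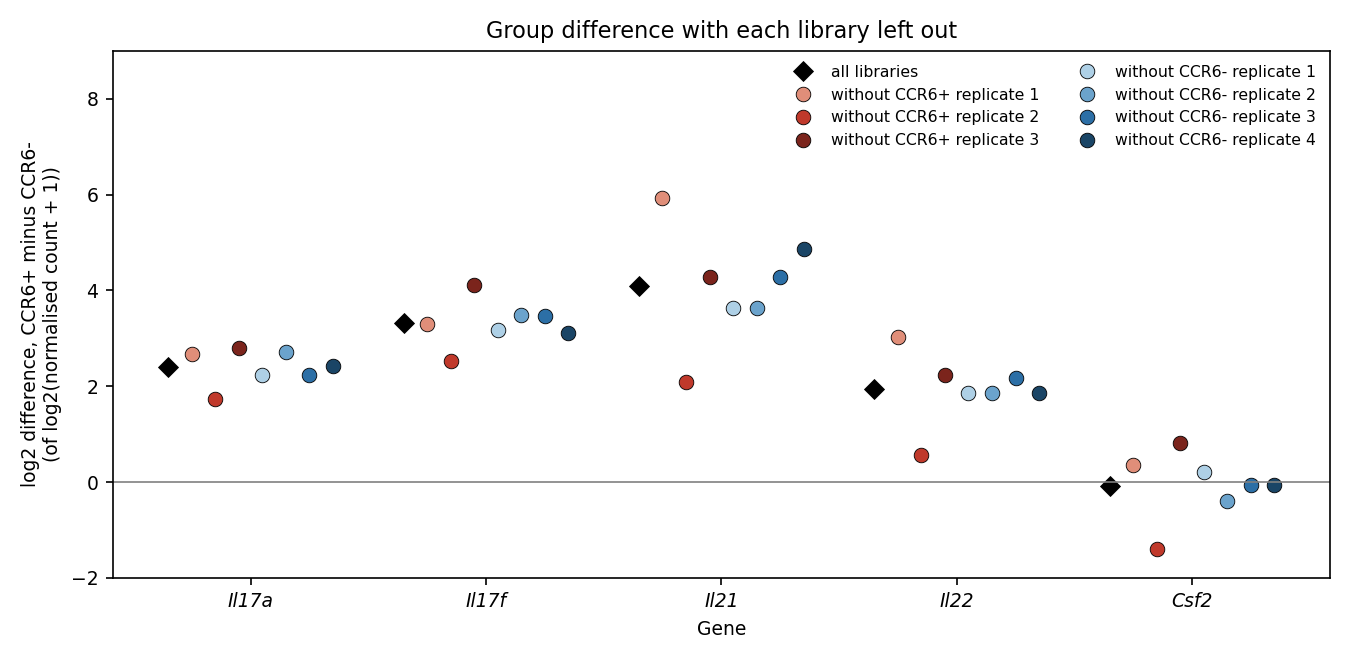
Log2 difference, CCR6+ minus CCR6-, of each of the 5 genes with all 7 libraries and with each library left out in turn. Il17a, Il17f, Il21 and Il22 stay above 0 throughout, and Csf2 runs from -1.41 without CCR6+ replicate 2 to 0.81 without CCR6+ replicate 3.

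Receptors for the cytokines that induce and sustain TH17 cells were led by that of IL-23. Of 9 such receptor genes tested, 6 had positive and 3 negative differences with a median of 0.13, limma called 0, and the groups did not overlap for 2, both higher in CCR6+ (7.96% of all genes tested). Il23r, the specific chain of the IL-23 receptor, had values of 281, 237 and 196 in CCR6+ replicates 1 to 3 and 1.89, 0, 9.20 and 2.71 in CCR6- replicates 1 to 4. Its log2 difference of 6.19 (limma adjusted p = 0.205, DESeq2 adjusted p = 1.81e-07) was 6.19 also without CCR6+ replicate 2. Unlike the cytokines, Il23r was not highest in that library. Il1r1, the signalling receptor of IL-1, stood at 1028 ± 585 (SD, n = 3) against 130 ± 46.5 (SD, n = 4), 2.87 higher on the log2 scale (limma adjusted p = 0.302, DESeq2 adjusted p = 4.15e-06). Il12rb1, the partner chain of Il23r, differed by 0.50, and Il6ra, the IL-6 receptor chain, by -0.42, with limma adjusted p of 0.504 and 0.492.

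Among 11 genes of transcription factors that act in TH17 cells, 8 differences were positive and 3 negative, and their median was 0.55 (0.58 when CCR6+ replicate 2 was left out). The groups did not overlap for 3, all higher in CCR6+ (7.96% of all genes tested), and limma called 0. Ahr, a ligand-activated factor required for Il22 in TH17 cells, stood at 4539 ± 994 (SD, n = 3) against 1615 ± 117 (SD, n = 4), a log2 difference of 1.47. Its adjusted p was 0.222 by limma and 6.04e-11 by DESeq2. Bhlhe40, a factor needed for GM-CSF production by T cells, differed by 0.64 and Fosl2, an AP-1 member, by 0.84 (limma adjusted p = 0.415 and 0.455, DESeq2 adjusted p = 0.000202 and 0.0783). Maf, a factor that acts on Il21 and Il10, differed by 0.58, with overlap between the groups (limma adjusted p = 0.482). Without CCR6+ replicate 2, DESeq2 also called Fosl2, Maf and Rora in this list and Il12rb1 among the receptors, all higher in CCR6+.

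Genes listed as restraints of TH17 cytokines leaned the other way without a call, and most of this lean was gone without CCR6+ replicate 2. Of 9 tested, 3 stood higher and 6 lower in CCR6+ cells; the median was -0.40, and -0.08 when CCR6+ replicate 2 was left out. The groups overlapped for all 9. Socs3, Egr2 and Ikzf3 stood higher, by 0.39, 0.12 and 0.09, or 0.68, -0.08 and 0.41 without CCR6+ replicate 2. Ikzf3 is counted in this list and its medians although it is not established as a restraint of TH17 cytokines. Foxp3 differed by -0.09, and by 0.52 without that library. Ets1 differed by -0.58, Tbx21, which encodes the TH1 factor T-bet, by -0.52, Gfi1 by -0.54 and Stat5b, a transducer of IL-2 signals, by -0.40. Without CCR6+ replicate 2, Ets1, Tbx21, Gfi1 and Stat5b differed by -0.40, -0.60, -0.25 and -0.10. Their limma adjusted p ran from 0.480 for Ets1 to 0.571 for Stat5b.

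Receptor chains for the 5 cytokines themselves were examined next. Of 10 genes, 8 were tested, 5 with positive and 3 with negative differences, and limma called 0. Il17ra, the chain shared by IL-17 family receptors, stood at 10034 ± 685 (SD, n = 3) in CCR6+ and 14186 ± 3119 (SD, n = 4) in CCR6- libraries. It was lower in every CCR6+ library, as were 5.53% of all genes tested, with a log2 difference of -0.48 (limma adjusted p = 0.480). Its partner Il17rc differed by 2.82, or 1.80 without CCR6+ replicate 2. Csf2rb2 and Csf2rb differed by 2.32 and 2.12, or 1.70 and 1.49 without that library (limma adjusted p = 0.463 and 0.482). Csf2rb encodes the beta chain of the GM-CSF receptor. Csf2rb2 encodes a related beta chain that serves IL-3, and it is counted in this list all the same. Il22ra2, the soluble decoy receptor of IL-22, did not pass the filter, with values of 20.8, 0, 2.76 and 14.9 in CCR6- replicates 1 to 4 and 0 in all 3 CCR6+ libraries.

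**Figure D3:**
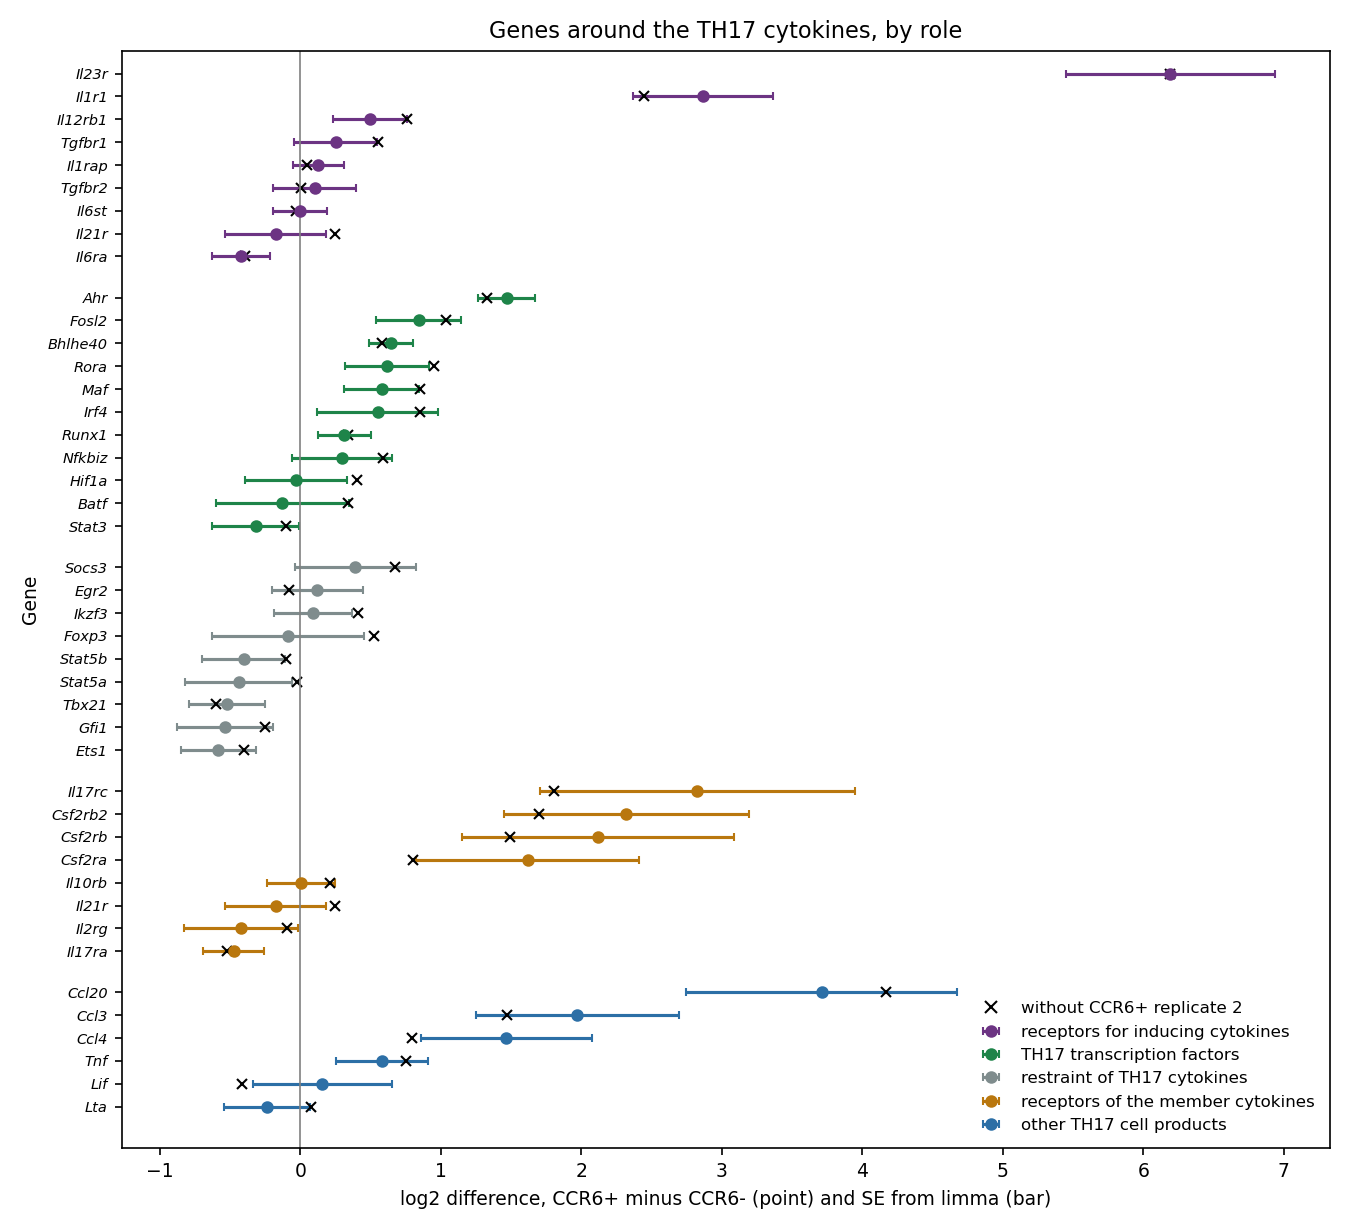
Log2 difference, CCR6+ minus CCR6-, of each tested gene in 5 of the lists by role (points, with the SE from limma as a bar) and its value without CCR6+ replicate 2 (crosses). Il23r and Il1r1 lie above the other receptors for inducing cytokines, Ahr lies above the other transcription factors, and 6 of the 9 genes listed as restraints lie below 0.

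Related cytokine genes gave few further values. None of the other 4 IL-17 family genes passed the filter. Il25, the gene of an epithelial and type 2 cytokine, had values of 9.45, 52.3 and 20.3 in CCR6+ replicates 1 to 3 and 0.946, 1.66, 2.76 and 0 in CCR6- replicates 1 to 4, without overlap; it was singled out after its values were seen. Of the other genes of the IL-10 family, 1 of 4 was tested. Il10, the suppressive cytokine of Treg cells, stood at 952 ± 327 (SD, n = 3) against 564 ± 331 (SD, n = 4), a log2 difference of 0.87 (limma adjusted p = 0.521). Of the cytokines that share the common gamma chain with IL-21, Il15 differed by 2.46 and Il7 by 1.55, or 1.36 and -0.04 without CCR6+ replicate 2. Il5, whose receptor shares its beta chain with that of GM-CSF, differed by 0.59, and by -1.33 without that library. None of these passed the limma test (adjusted p = 0.472 for Il15, 0.700 for Il7 and 0.886 for Il5).

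Of 6 other products of TH17 cells, 5 had positive differences, their median was 1.02 (0.77 when CCR6+ replicate 2 was left out), and limma called 0. Ccl20, the ligand of CCR6, had values of 24.9, 11.4 and 38.6 in CCR6+ replicates 1 to 3 and 0, 9.11, 0 and 0 in CCR6- replicates 1 to 4. The groups did not overlap, its log2 difference was 3.71 (limma adjusted p = 0.419), and unlike the 5 cytokines it was lowest among CCR6+ libraries in replicate 2. The chemokine genes Ccl3 and Ccl4 differed by 1.97 and 1.47 and Tnf by 0.58, with limma adjusted p from 0.461 to 0.519. These 3 differences were 1.47, 0.79 and 0.75 without CCR6+ replicate 2. Over the 10 role lists, chromosomal neighbours included, 54 of 68 listed genes were tested. Among them, Il23r and Ccl20 reached the minimum value in the 3 CCR6+ libraries alone, so the filter let them in through the group where they are high.

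Genes that neighbour the 5 cytokine genes on their chromosomes showed no common direction. Of 8 tested, 4 stood higher and 4 lower in CCR6+ cells, and the median was 0.04. Mcm3, a replication licensing gene that lies 12.35 kb from Il17f, stood at 6042 ± 930 (SD, n = 3) in CCR6+ and 9346 ± 819 (SD, n = 4) in CCR6- libraries. It was lower in every CCR6+ library, with a log2 difference of -0.64 (limma adjusted p = 0.435, DESeq2 adjusted p = 0.00600). Ifng, the TH1 cytokine gene in the neighbourhood of Il22, had values of 37.8, 155 and 4.06 in CCR6+ replicates 1 to 3 and 211, 169, 162 and 163 in CCR6- replicates 1 to 4. The groups of Ifng did not overlap, with CCR6+ lower and a log2 difference of -2.49 (limma adjusted p = 0.478, DESeq2 adjusted p = 0.353). Without CCR6+ replicate 2 the difference of Ifng was -3.65, and DESeq2 called it lower in CCR6+ (-3.05, DESeq2 adjusted p = 0.00848). P4ha2, near Csf2, differed by 2.95, or 1.77 without CCR6+ replicate 2, with higher values in all CCR6+ libraries. The other tested neighbours were Pkhd1, Cetn4, Bbs12, Mdm1 and Paqr8, with differences of 2.13, 1.82, 0.16, -0.30 and -0.08. Leaving out CCR6+ replicate 2 gave 0.21 for Pkhd1, 0.85 for Cetn4 and -0.05 for Bbs12.

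Markers of other cells that can make these cytokines were measured beside them. Limma called 0 of them, as it called 0 of all 14582 genes tested. In the innate lymphoid and NK list DESeq2 called 1, Kit, higher in CCR6+ (DESeq2 adjusted p = 0.00397). It called 0 of the gamma-delta T list, where Sox13 and 5830411N06Rik had no DESeq2 adjusted p. The symbols of the gamma-delta T cell list held 4 that were listed, Sox13, Blk, 5830411N06Rik and Zbtb16, and the T cell receptor delta and gamma constant genes were not analysed here. Their summed value was 463, 3278 and 302 in CCR6+ replicates 1 to 3 and 47.4 to 187 in CCR6- libraries, without overlap and highest in the library where Il17a, Il17f and Il21 were highest. Of all genes tested, 7.96% were higher in CCR6+ without overlap. Blk alone held 284, 419 and 73.1 of the sums of CCR6+ replicates 1 to 3, and 139 of the 187 in CCR6- replicate 2. All 4 genes of the list had positive differences, and the median was 3.35, or 1.87 when CCR6+ replicate 2 was left out. 5830411N06Rik, a scavenger receptor gene of gamma-delta T cells, had 127, 1181 and 95.4 in CCR6+ and 1.84 to 24.9 in CCR6- libraries, and Sox13 had 45.5, 1085 and 79.2 against 10.4 to 29.4. The groups overlapped for the other 2, Blk (73.1 to 419 against 8.80 to 139) and Zbtb16 (6.01 to 594 against 0 to 26.5). The sum of 7 innate lymphoid and NK cell markers was 10054 to 21851 in CCR6+ and 3278 to 12828 in CCR6- libraries, with overlap and with 6 of 7 differences positive. Their part in the cytokine values was not tested. Within the innate lymphoid and NK list, Il1rl1, which lung Treg cells can also express, had the highest mean and overlapped between groups. Among CCR6+ libraries it was lowest in replicate 2, as the sum of the Treg markers was. It had 20591, 4998 and 8170 in CCR6+ replicates 1 to 3 and 2669 to 11445 in CCR6- libraries. Il1rl1 thus made up most of the list's sum in every library but CCR6+ replicate 2, where the sum was 14140. Kit, next by mean, was at 630, 6349 and 1341 in CCR6+ replicates 1 to 3 and at 176 to 611 in CCR6- libraries, without overlap. Eomes had the negative difference of the list, -1.12, or -1.87 without CCR6+ replicate 2.

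Markers of other lung and blood cells had mostly positive differences, with the highest sums of most lists in CCR6+ replicate 2. DESeq2 called 2 macrophage and monocyte, 1 granulocyte, 1 dendritic cell, 2 epithelial and 4 endothelial and stromal markers higher in CCR6+. It called 0 B cell, 0 Treg and 0 T cell markers, and 3.85% of all genes to which it gave an adjusted p were called higher. Macrophage and monocyte markers summed to 10299 to 123599 in CCR6+ and 1481 to 35112 in CCR6- libraries (9 of 9 tested differences positive), with 0 to 1 and 0 to 2 of the 10 markers at 0. Granulocyte and mast cell markers summed to 676 to 6365 against 58.9 to 496 (7 of 7 positive), with 0 to 1 and 0 to 2 at 0. Epithelial markers summed to 2926 to 51602 against 1450 to 6472 (7 of 7 positive), and endothelial and stromal markers to 6176 to 46607 against 5515 to 8200 (7 of 7 positive), with none at 0 in any library. Dendritic cell markers summed to 725 to 6487 against 311 to 694 (4 of 5 positive), with 0 to 1 at 0 in CCR6+ libraries, and B cell markers to 1124 to 4986 against 442 to 3302 (5 of 5 positive), with 0 to 1 at 0 in CCR6- libraries. In CCR6+ replicate 2 the Treg markers had their lowest sum, 64131 against 120580 to 211673 in the other 6 libraries, and so had the T cell markers, 107949 against 167583 to 235105. The part of these cells in the values of Il17a, Il17f, Il21, Il22 and Csf2 was not tested. Without CCR6+ replicate 2, the median differences of gamma-delta T, macrophage, granulocyte and B cell markers were 1.87, 1.44, 1.82 and 1.74. Those of dendritic, epithelial, stromal, and innate lymphoid and NK markers were 0.83, 0.89, 0.89 and 0.92, and those of Treg and T cell markers 0.22 and 0.001. Il17a differed by 1.73 and Il17f by 2.52 without that library.

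**Figure D4:**
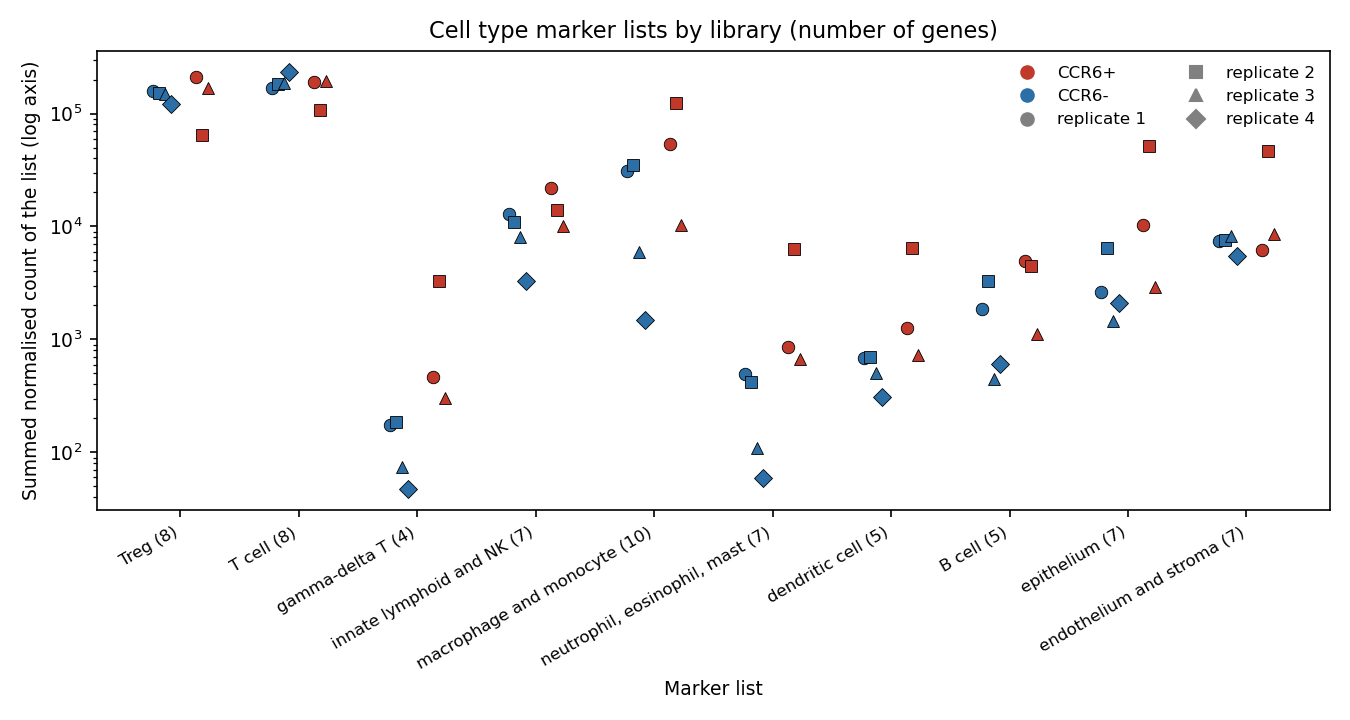
Summed deposited value of each marker list in each of the 3 CCR6+ and 4 CCR6- libraries, on a log axis, with a colour for each group and a shape for each replicate number. CCR6+ replicate 2 (red square) is lowest for Treg and T cell markers, and highest for gamma-delta T, macrophage, granulocyte, dendritic, epithelial and stromal markers.

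The members' profiles over the 7 libraries were compared with those of all tested genes by Pearson's r of log2(value + 1), as a description of libraries that share the same depth differences. Il17a was most like Tmem159 (r = 0.996), Sepp1 (0.992), the gene of a selenium transport protein, and Rabl2 (0.989), and 256 genes had r above 0.9 with it. Il17f was most like Ehd1, an endocytic recycling gene (r = 0.981), Rhbdf1 and Rab23 (both 0.980), with 311 genes above 0.9. Il21 was most like the phosphodiesterase gene Pde4a (r = 0.989), Spata1 and Abhd15 (both 0.983), with 265 genes above 0.9. Among the members, Il17a and Il17f had r = 0.935 over 7 libraries and 0.845 over the 6 without CCR6+ replicate 2. Il17a and Il21 had 0.775 and 0.352, and Il17f and Il21 had 0.699 and 0.197, so the likeness of Il21 to the IL-17 genes rested largely on that library.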

How the data were processed

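RNA of sorted Foxp3-EGFP+ lung Treg cells was amplified with a SMART-Seq v4 kit and made into libraries with a KAPA Hyper Prep kit, per the labels' protocols. The deposited values are a normalized signal per gene symbol. In each library 100% of them are whole multiples (to 0.001 reads) of the smallest step, as counts divided by a size factor are, and dividing by that step gave the reads, 11607780 to 47261246 a library. The mm10 build, DESeq2 1.6.3, HTSeq 0.6.1p1 and STAR 2.5.1b appear in the submitters' processing notes, with no role or order; annotation and strand use: not given in the sources used here. Of 19736 symbols, 97.0% matched the gene name tables, 27 read as dates and 2 are repeated.

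The 14582 genes that reached 10 in 3 or more of the 7 libraries were tested with limma 3.58.1 (R 4.3.3) on log2(value + 1), CCR6+ against CCR6-, two-sided, without covariates, with Benjamini-Hochberg adjustment over all of them at 0.05. Each of the 5 cytokine genes also had an exact permutation test (scipy 1.17.1) over all 35 assignments of libraries to groups. Alternatives were other pseudocounts (0.5 and 8), no filter, quantile normalization, TMM scaling, robust limma-trend, edgeR 4.0.16 and DESeq2 1.42.0 on recovered reads, a replicate block, and each library left out. The fits were tested on simulated data. DESeq2 and edgeR without CCR6+ replicate 2 were added after the data were seen.

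Gene lengths and positions came from GENCODE M21 (mm10) and promoters from RefSeq (GRCm38.p6). The members and lists were chosen with earlier results of these data known. One gene of the lists is not reported here. From each of the 10 role lists the text names up to 4 tested genes of smallest limma p, from the marker lists the 2 genes of highest mean where a result touches a member, and for each member the 3 genes most like it.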

Additional observations from a re-analysis of the deposited data

Results flagged for a closer look

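In a group of 4 libraries, a value was singled out where its gap to the nearest other was, as a share of the whole range, above Dixon's 95% critical value. Over the 73 sets of CCR6- values looked at, 11 were marked, and groups of 3 were not looked at. Chance alone marks about 5% of sets of continuous values. That rate does not hold where 3 of the 4 values are 0, since any other value is then marked, as it was for Il22, Il17b, Il19, Il20, Il24, Ccl20 and Acsl6. Among the cytokine genes this was Il22, with 0.920 (1 read) in CCR6- replicate 3 against 0 in the other 3. Il17b, Il19 and Il20 had the same value of 0.920, from 1 read each, in that library and 0 in the others. Acsl6, in the neighbourhood of Csf2, had 10.1 in CCR6- replicate 3 and 0 elsewhere in the group. In CCR6- replicate 1, Il17c had 6.62 against 0 to 0.920, Il24 had 2.84 against 0, Fosl2 had 1279 against 895 to 948, and Ifng had 211 against 162 to 169. Ccl20 had 9.11 in CCR6- replicate 2 against 0 in the other 3, and Il2rg, the common gamma chain gene used by the IL-21 receptor, had 31052 in CCR6- replicate 4 against 13383 to 15248. Most of these rest on 1 to 11 reads.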

How the results depend on the processing

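Il17a, Il17f and Il21 stood higher in CCR6+ in all 19 alternative settings run, by 0.23 to 2.80, 1.51 to 4.12 and 2.09 to 6.08 on the log2 scale, the lowest for Il17a and Il17f under quantile normalization and for Il21 without CCR6+ replicate 2. Only DESeq2 called any of them: Il17f (3.92) and Il21 (6.08). Il22 was positive in 12 of 12 alternative settings (0.56 to 3.03). Csf2 was positive at a pseudocount of 8 (0.22) and ran from -1.41 to 0.81 when 1 library was left out. Quantile normalization gave no value for Il22 and Csf2. The count of members without overlap was 2, and 2 to 4 when 1 library was left out, 4 without CCR6+ replicate 1. The share of all genes without overlap is not given for these smaller sets. Groups of fewer libraries separate more easily, so the rise to 4 is not a result about the members. Genes called over the whole table numbered 0 by limma, against 1540 at an unadjusted p under 0.05, 1 at a pseudocount of 0.5, 2 at a pseudocount of 8, 1 with TMM scaling, 4 with quantile normalization, 10 with limma-trend, 2 with edgeR and 664 with DESeq2 (530 higher, 134 lower). Leaving out 1 library gave 0 to 1 calls, the 1 without CCR6+ replicate 1. Without CCR6+ replicate 2, DESeq2 called 185 and edgeR 2. Calls within the role lists numbered 0 by limma, 1 at a pseudocount of 8 (Il23r), 1 with limma-trend (Ahr), 0 with edgeR and 5 with DESeq2, and without CCR6+ replicate 2 they numbered 9 with DESeq2 and 0 with edgeR. The cause of these differences between settings was not tested. With a replicate block on the shared numbers 1 to 3, limma called 0 genes. The log2 differences were 2.43 (SE 0.23) for Il17a, 3.12 (SE 0.78) for Il17f and 4.87 (SE 1.91) for Il21. Same-numbered libraries deviated together with r of -0.13, -0.11 and 0.34, and pairs of unlike number with r of -0.76 to 0.69. With so few libraries these r cannot decide whether a shared number means a shared origin, which the labels do not state. Few reads limit Il22 and Csf2, whose values in all libraries but CCR6+ replicate 2, the shallowest, rest on 0 to 6 reads.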

Other observations

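The 16 reads of Il22 came from the 3 libraries with the fewest genes listed at 0: CCR6+ replicates 2 and 3 and CCR6- replicate 3. Reads of Il17b, Il19 and Il20 were found in those 3 libraries and in no other. Among the 1369 genes with reads in exactly 3 libraries, 925 (67.6%) had them in those 3. These counts were made after the values of Il22 were seen.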
